A study of Mus musculus with 8 samples.

Results

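The genes described here are 10 members of glycolysis, chosen by name: the glucose transporter Slc2a1 and the enzymes Hk1, Hk2, Pfkl, Aldoa, Pgk1, Pgam1, Eno1, Pkm and Ldha. Their mRNA was measured on 8 arrays, each from the fetal liver cells of 1 mouse, sorted as Lin-Sca+Kit+ (lineage-marker-negative, Sca-1-positive, Kit-positive), the gate used for haematopoietic stem cells. The mice carried an ADAR1 null genotype (3 arrays), were ADAR1 heterozygous (3 arrays) or were wild type (2 arrays), all on the C57/B6 strain. ADAR1, encoded by Adar, edits adenosines in double-stranded RNA into inosines. The heterozygous and wild-type arrays together are called the 5 controls. The sources used here do not state the gestational age, the exons removed or whether the deletion is confined to some cell types. Of the 10 genes, 9 had at least 1 array probe set that named them alone; Eno1 was not analysed here. Those 9 genes had 20 probe sets of their own, and 1 more was annotated to Hk1 together with other genes, so 21 of the 45037 probe sets tested, and 9 of the 18193 genes, belong to the group.

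Glycolysis splits glucose into pyruvate in the cytosol and yields ATP without oxygen. Glucose enters through transporters, is trapped by hexokinase, is committed to the pathway by phosphofructokinase and is cleaved by aldolase; the later enzymes harvest ATP and NADH, and lactate dehydrogenase regenerates NAD+ by turning pyruvate into lactate. Haematopoietic stem cells of adult bone marrow are known for relying on glycolysis, and many genes of the pathway are textbook targets of the hypoxia-inducible factors and of Myc.

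The array values are intensity per probe set as deposited, summarised by the authors with RMA, a method that combines the probes of a set into 1 value per array. Each gene is described by its brightest probe set, ranked by mean log2 intensity over the 8 arrays. All 9 brightest probe sets lay above background on all 8 arrays, as did 19 of the 20 probe sets; the exception was a dim Pfkl probe set that did so on 4. Differences are on the log2 scale with the standard error (SE) from limma, a linear model fitted across all probe sets, and adjusted p is Benjamini-Hochberg over all 45037. With so few arrays, precision is limited throughout.

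The cells and arrays differed between genotypes in other ways. Probe sets above background made up 40.0%, 46.4% and 44.7% of all on the null arrays and 45.6% to 61.2% on the control arrays. Among genes of the sorting gate, Kit was dim (9.33 to 13.3 on null, 13.2 to 23.5 on heterozygous and 11.7 to 20.2 on wild-type arrays) and Ly6a, which encodes Sca-1, was not analysed here; the summed intensity of the 10 measured of 12 stem and progenitor markers was 675 to 1436, 810 to 987 and 795 to 921 in the same order of groups. The sum of 7 measured of 9 hepatocyte markers was 57.8 to 75.3 on null, 620 to 1070 on heterozygous and 197 to 617 on wild-type arrays. Of these, Afp was called lower in null against controls (-5.11 ± 0.79, limma adjusted p = 0.0403) and against heterozygous (-5.78 ± 0.75, limma adjusted p = 0.0354). Apoa2 was called against heterozygous only (-3.32 ± 0.37, limma adjusted p = 0.0223). Among all genes 0.934% were called against controls and 0.770% against heterozygous. The sum of 9 of 9 macrophage markers was 60.5 to 72.8, 216 to 354 and 154 to 677, with 6 of the 9 at background on every null array. Of 9 measured of 11 erythroid markers the sum was 724 to 828 on null, 1357 to 1653 on heterozygous and 932 to 1096 on wild-type arrays. These genes did not move together. Ermap read 35.6, 164 and 96.3 on null against 409 to 739 on control arrays. Epor read 257 to 333 on null and 255 to 305 on heterozygous arrays, which overlapped, against 149 and 180 on wild-type arrays. In null minus wild type 4 of the 9 were below 0 (50.0% of all genes were), with a median of 0.01. In null minus heterozygous 6 of the 9 were below 0 (43.7% of all genes were), with a median of -0.36. There 5 were lower and 0 higher by an unadjusted limma p of 0.05, where 7.88% of all genes were lower. In null minus controls 7 of the 9 were below 0 (45.9% of all genes were), with a median of -0.21. Sums of 9 of 9 granulocyte markers were 80.0 to 219, 145 to 352 and 195 to 211, and those of 6 of 6 endothelial markers 379 to 533, 216 to 388 and 214 to 319. Whether fewer cells of a type or less RNA per cell lowered a signal cannot be told apart in these bulk samples, and the part of these markers in the results below was not tested. The brightest Adar probe set read 59.7, 144 and 176 on the null, 13.1, 16.1 and 9.89 on the heterozygous and 7.66 and 17.6 on the wild-type arrays, higher on all 3 null arrays than on any control (3.22 ± 0.41, limma adjusted p = 0.0170). The other 2 Adar probe sets did not show this rise. One read 17.3, 7.61 and 7.66 on null, 6.41, 6.74 and 6.02 on heterozygous and 13.5 and 12.7 on wild-type arrays. Its null minus control difference was 0.24 ± 0.40 (limma adjusted p = 0.835), and that of the other, dim on all arrays, was -0.16 ± 0.20 (limma adjusted p = 0.778). The sources used here do not place these probe sets relative to the deletion, so they do not check the genotype labels.

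On the null arrays 7 of the 9 glycolysis genes read lower on all 3 arrays than on any of the 5 control arrays: Slc2a1, Hk1, Pfkl, Pgk1, Pgam1, Pkm and Ldha. Among all 18193 genes 4.95% had that order. The exceptions were Hk2, which was high on 1 null array, and Aldoa, which overlapped between the groups. The differences of the 7 genes from the controls were -1.20 to -0.64, that is 43.4% to 64.1% of the control level. By the brightest probe set none of the 9 passed an adjusted p of 0.05 (limma), the smallest being 0.0984 for Pgk1 in null against controls. Among all genes 0.517% passed in null against wild type, 0.770% in null against heterozygous, 0.00% in heterozygous against wild type and 0.934% in null against controls. Of the 20 probe sets, 10 read lower on all null arrays than on any control (4.30% of all probe sets did). Only 1, the second brightest for Pfkl, fell in null against controls (0.582% of all probe sets were called there, 0.253% as lower). In null against controls 7 of the 9 genes had an unadjusted p under 0.05, all as lower, as 7.98% of all genes did.

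**Figure D1:**
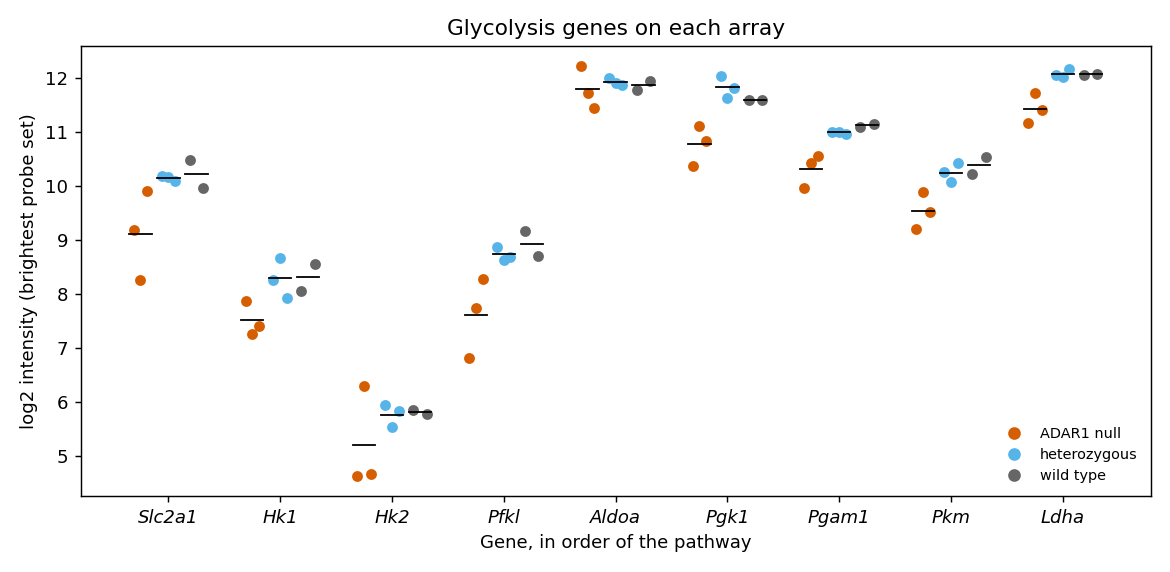
Intensity (log2 scale) of the brightest probe set of each of the 9 measured glycolysis genes in each array, with null, heterozygous and wild-type arrays from left to right; each point is 1 mouse and each bar a group mean. Null points lie below all control points for 7 genes, while for Hk2 null array 2 is the highest of the 8 and for Aldoa null array 1 is.

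Promoter windows of 250 bases upstream of the annotated start are given for 4 genes, because the results turn on them: Pfkl, which holds the called probe set, Pgk1 and Ldha, 2 bright enzymes whose null arrays lay below all controls, and Aldoa, whose brightest probe set overlapped between them. The sequences are from RefSeq (mouse GRCm38.p6), 5′ to 3′ on the gene's strand, and capitals mark ACGTG or GCGTG on either strand, the core letters of the hypoxia response element; CACGTG, the E-box read by Myc, holds ACGTG on both strands.
Pfkl, chr10:78009808-78010057, minus strand: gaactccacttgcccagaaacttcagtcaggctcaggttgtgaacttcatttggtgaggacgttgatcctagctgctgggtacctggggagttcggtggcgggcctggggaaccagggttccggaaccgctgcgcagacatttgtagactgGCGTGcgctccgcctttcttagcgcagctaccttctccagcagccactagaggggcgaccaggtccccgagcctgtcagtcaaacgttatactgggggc
Pgk1, chrX:106186850-106187099, plus strand: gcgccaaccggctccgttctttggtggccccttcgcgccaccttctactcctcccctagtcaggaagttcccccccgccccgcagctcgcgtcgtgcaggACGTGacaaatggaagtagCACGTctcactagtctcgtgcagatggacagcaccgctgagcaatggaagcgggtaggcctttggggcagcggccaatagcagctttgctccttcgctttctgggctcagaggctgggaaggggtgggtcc
Ldha, chr7:46845554-46845803, plus strand: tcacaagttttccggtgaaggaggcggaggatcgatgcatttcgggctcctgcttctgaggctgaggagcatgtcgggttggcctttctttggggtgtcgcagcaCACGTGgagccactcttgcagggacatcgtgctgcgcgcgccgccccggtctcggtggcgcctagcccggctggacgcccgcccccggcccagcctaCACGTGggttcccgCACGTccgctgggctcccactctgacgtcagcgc
Aldoa, chr7:126799255-126799504, minus strand: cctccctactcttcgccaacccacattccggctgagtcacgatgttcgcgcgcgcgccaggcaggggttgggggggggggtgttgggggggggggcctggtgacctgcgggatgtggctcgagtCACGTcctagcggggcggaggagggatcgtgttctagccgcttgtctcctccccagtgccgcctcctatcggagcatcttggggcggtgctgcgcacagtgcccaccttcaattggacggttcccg
Ldha has 2 windows in the table and Aldoa 3, and those printed were chosen after the motifs were counted; the other Ldha window held GCGTG 1 time and no ACGTG, and 1 of the other Aldoa windows held neither. The printed Ldha window held ACGTG 5 times over both strands, 4 of them within its 2 CACGTG, the Pgk1 window held ACGTG 2 times, the Aldoa window 1 time, and the Pfkl window held GCGTG 1 time. Of the 14 windows of the 9 genes, some of which overlap, 8 held ACGTG, 5 GCGTG and 1 CACGTG, against 16.6%, 28.2% and 6.02% of all 32851 windows. ACGTG or GCGTG was in 11 of the 14 windows, against 38.6% of all windows. These matches describe letters in a window and not bound sites.

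Slc2a1 encodes GLUT1, the facilitative transporter that brings glucose into the cell. Its brightest probe set read 581, 306 and 956 on the null arrays, 1165, 1146 and 1085 on the heterozygous and 1417 and 998 on the wild-type arrays. All 3 null values were below all control values, with null array 3 just under the second wild-type array. The null minus control difference was -1.06 ± 0.33 (SE), or 48.0% of the control level (limma adjusted p = 0.294). The other Slc2a1 probe sets did not keep the groups apart. One read 140, 315 and 288 on null, 437, 353 and 360 on heterozygous and 263 and 351 on wild-type arrays (null minus controls -0.58 ± 0.29, limma adjusted p = 0.491). The other read 190, 437 and 115 on null, 499, 363 and 407 on heterozygous and 215 and 220 on wild-type arrays (-0.61 ± 0.47, limma adjusted p = 0.637). The lowest null array was array 2, array 1 and array 3 in the 3 probe sets in turn.

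Hk1 and Hk2 encode the hexokinases that phosphorylate glucose and so hold it in the cell, Hk1 being the broadly expressed form and Hk2 the inducible one. Hk1 read 235, 154 and 171 on null, 308, 408 and 243 on heterozygous and 267 and 378 on wild-type arrays. The null values all lay below the controls, though null array 1 was close to heterozygous array 3. The difference was -0.78 ± 0.22, or 58.3% of the control level (limma adjusted p = 0.2502). A second, dimmer Hk1 probe set showed no such order, with 74.2, 102 and 23.7 on null, 63.0, 57.2 and 88.3 on heterozygous and 49.9 and 41.7 on wild-type arrays (-0.04 ± 0.47, limma adjusted p = 0.978). The probe set shared by Hk1 and other genes differed by -0.18 ± 0.18 between null and controls (limma adjusted p = 0.719) and cannot be assigned to Hk1. Hk2 read 24.95, 79.2 and 25.7 on null, 61.6, 46.4 and 57.2 on heterozygous and 58.2 and 55.4 on wild-type arrays. Null arrays 1 and 3 were the lowest of the 8 and null array 2 the highest, so the difference of -0.58 ± 0.37 (limma adjusted p = 0.576) rests on null arrays that disagree. Without null array 2 it was -1.13 against controls (limma adjusted p = 0.0186) and -1.11 against heterozygous (limma adjusted p = 0.0492). That omission removes the array that disagrees, so it cannot decide whether Hk2 was lower. Against controls Hk2 passed in 1 of 8 omissions, with limma adjusted p up to 0.841, and in 0 of 10 settings.

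Pfkl encodes the liver-type subunit of phosphofructokinase, the enzyme that commits sugar to glycolysis. The brightest Pfkl probe set read 113, 213 and 308 on null, 470, 397 and 414 on heterozygous and 572 and 415 on wild-type arrays, with no overlap. The difference was -1.20 ± 0.31, or 43.4% of the control level, the largest among the 9 brightest probe sets (limma adjusted p = 0.189). The second Pfkl probe set read 96.7, 157 and 154 on null, 303, 283 and 368 on heterozygous and 419 and 338 on wild-type arrays. Every null value was below every control value, and in null it fell by 1.35 ± 0.21 on the log2 scale (limma adjusted p = 0.0403), to 39.2% of the control level with a 95% interval of 28.1% to 54.7%. Against wild type alone the same probe set differed by -1.50 ± 0.26 (limma adjusted p = 0.121) and against heterozygous by -1.25 ± 0.23 (limma adjusted p = 0.118). The call against controls held without null array 2 (limma adjusted p = 0.0358) and was lost without any other single array (0.0549 to 0.126), with a pseudocount (0.0525), with cyclic loess (0.0930), with array weights (0.0831) and with a trended prior (0.173). The remaining Pfkl probe set was near background, at 5.77 to 9.27 on null, 6.89 to 8.86 on heterozygous and 7.51 to 10.6 on wild-type arrays.

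Aldoa encodes aldolase A, which cleaves fructose bisphosphate into 3-carbon sugars. Its brightest probe set read 4729, 3345 and 2788 on null, 4066, 3823 and 3738 on heterozygous and 3517 and 3937 on wild-type arrays. Null array 1 was the highest of the 8 and null arrays 2 and 3 the lowest. The difference was -0.11 ± 0.17, with a 95% interval from 70.2% to 122% of the control level (limma adjusted p = 0.823); its sign turned with quantile normalization (0.013) and cyclic loess (0.13). All 5 Aldoa probe sets carry the suffix that marks probes able to bind other transcripts, so their levels are uncertain. Null array 1 was the highest array in 4 of the 5, up to 6291 where the other null arrays read 2691 and 2533. In the remaining one, 1623, 1658 and 1196 on null arrays lay below 2126, 2105 and 1883 on heterozygous and 1866 and 1934 on wild-type arrays (-0.42 ± 0.14, limma adjusted p = 0.318).

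**Figure D2:**
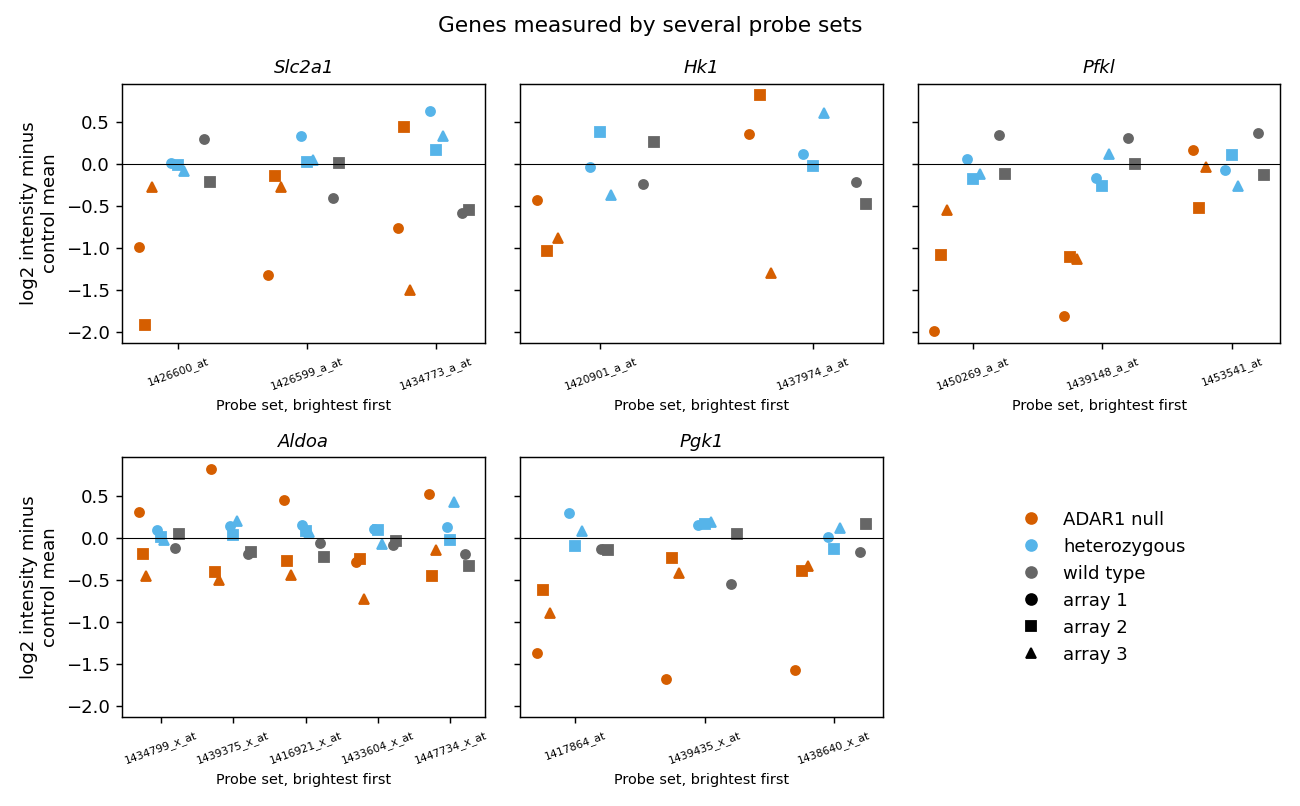
Intensity (log2 scale) minus the control mean of the same probe set, for every probe set of the glycolysis genes that have more than 1, in each array. Null, heterozygous and wild-type arrays run from left to right. The 2 brighter Pfkl probe sets and 2 of 3 for Pgk1 keep null below all controls, and the Slc2a1, Hk1 and Aldoa probe sets of 1 gene differ in which arrays are lowest.

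Pgk1 encodes phosphoglycerate kinase, the first step of the pathway to make ATP. It read 1319, 2208 and 1820 on null, 4174, 3172 and 3595 on heterozygous and 3091 and 3078 on wild-type arrays. The highest null array was well under the lowest control. The difference was -0.96 ± 0.19, or 51.3% of the control level (limma adjusted p = 0.0984). It passed in 1 of 8 fits with 1 array left out, that without null array 2, its highest null array (limma adjusted p = 0.0423). Of 10 settings it passed in 1, with a trended prior (0.0394). The largest limma adjusted p was 0.240 over the omissions and 0.199 over the settings. The other Pgk1 probe sets, both with the cross-binding suffix described for Aldoa, differed by -0.77 ± 0.28 (limma adjusted p = 0.370), with null below all controls, and by -0.78 ± 0.35 (limma adjusted p = 0.447), where null and wild-type arrays overlapped. In both, null array 1 was the lowest of the 8.

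Pgam1 encodes phosphoglycerate mutase, which moves the phosphate group along before the enolase step. It read 994, 1374 and 1503 on null, 2053, 2033 and 2002 on heterozygous and 2188 and 2259 on wild-type arrays. All null arrays lay below the heterozygous arrays, which were close to each other and below both wild-type arrays. The null minus control difference was -0.73 ± 0.15, or 60.4% of the control level (limma adjusted p = 0.110). Pkm encodes pyruvate kinase of the muscle type, which makes pyruvate and ATP in the last step, and its splice forms were not told apart here. It read 590, 942 and 737 on null, 1219, 1070 and 1366 on heterozygous and 1199 and 1489 on wild-type arrays, with null below all controls. The difference was -0.76 ± 0.18, or 58.9% of the control level (limma adjusted p = 0.160).

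Ldha encodes the lactate dehydrogenase subunit that favours making lactate from pyruvate. It read 2295, 3351 and 2717 on null, 4221, 4137 and 4604 on heterozygous and 4241 and 4295 on wild-type arrays. The 5 controls were close together and all 3 null arrays lay below them. The difference was -0.64 ± 0.14, or 64.1% of the control level (limma adjusted p = 0.123). It passed in 1 of 8 fits with 1 array left out, that without null array 2, its highest null array (limma adjusted p = 0.0347). Of 10 settings it passed in 1, with a trended prior (0.0394). The largest limma adjusted p was 0.287 over the omissions and 0.265 over the settings.

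The null arrays did not lie at one level. The mean deviation of the 9 genes from the control mean was -0.97 on null array 1, -0.64 on array 2 and -0.68 on array 3, against 0.05, -0.06 and -0.04 on the heterozygous and 0.02 and 0.02 on the wild-type arrays. Null array 1 was the lowest of the 8 for 6 of the 9 genes (it was for 16.9% of all genes), null array 2 for 2 and null array 3 for 1. Null array 1 also had the fewest probe sets above background, 40.0%, and the highest background cutoff, 9.29.

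Against wild type alone, all 9 differences were below 0 (50.0% of all genes were), with a median of -0.81 beside -0.00013 over all genes; 7 of the 9 had all null arrays below both wild-type arrays (10.8% of all genes did). They ran from -1.32 ± 0.40 for Pfkl to -0.07 ± 0.23 for Aldoa, and limma's adjusted p from 0.289 to 0.958. No probe set of the 20 passed (0.326% of all did), and 7 of the 9 genes had an unadjusted p under 0.05 as lower (5.91% of all genes). Against heterozygous alone all 9 were below 0 (43.7% of all genes), the median was -0.71 beside 0.06, and 7 of 9 genes lay below all heterozygous arrays (10.3% of all genes). These differences ran from -1.12 ± 0.36 for Pfkl to -0.13 ± 0.21 for Aldoa, with 0 of 20 probe sets called by limma (0.502% of all) and 7 of 9 genes past an unadjusted p of 0.05 as lower (7.88% of all genes). These comparisons share the null arrays with each other and with null against controls.

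Heterozygous minus wild-type differences of the 9 genes had a median of -0.05, the same as over all genes. They ran from -0.20 ± 0.40 for Pfkl to 0.23 ± 0.24 for Pgk1, and limma's adjusted p was 0.927 to 0.995. No probe set passed (0.00222% of all did) and 0 of the 9 genes had an unadjusted p under 0.05, where 2.90% of all genes did as lower. The 95% intervals were narrowest for Ldha, -0.42 to 0.45, and widest for Hk2, -1.24 to 1.13, and the null minus control difference of the same gene lay inside this interval for Slc2a1 (-1.13 to 0.99), Hk2 and Aldoa (-0.49 to 0.60) and below it for the other 6.

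**Figure D3:**
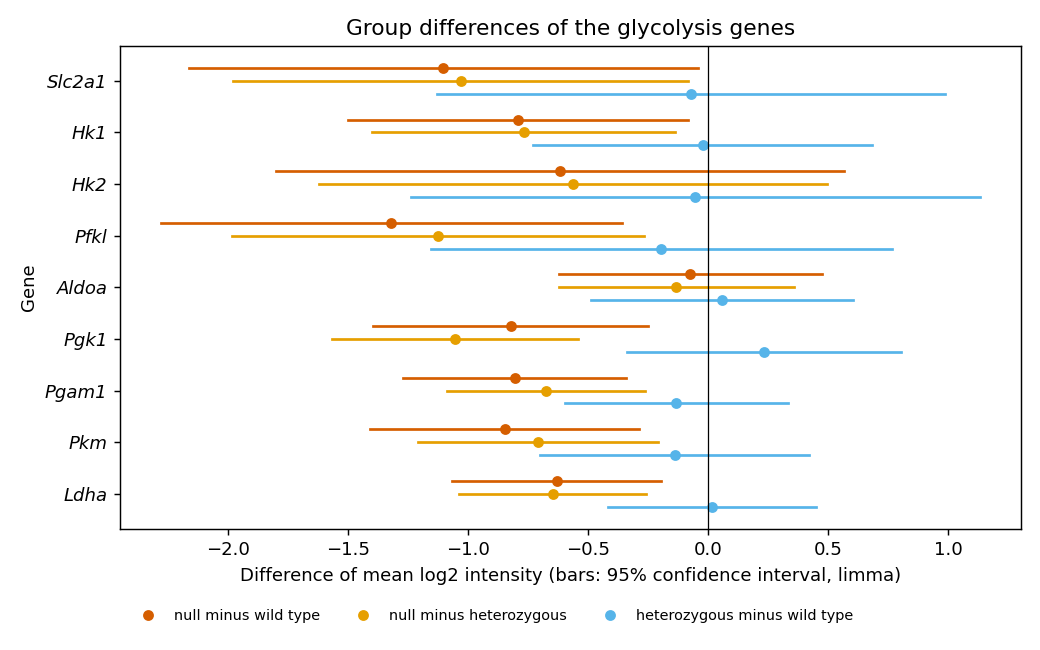
Log2 differences of the 9 glycolysis genes (brightest probe set) in the 3 pairwise comparisons, with 95% confidence intervals from limma. Both comparisons with null lie below 0 for all 9 genes, with intervals that reach 0 for Hk2 and Aldoa, and every heterozygous minus wild-type interval crosses 0.

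The genes are brightly expressed, and bright genes as a class read lower on the null arrays. Of the 9, 8 have a mean log2 level of at least 8, a level chosen after the values were seen. Among the 1456 genes at that level the median null minus control difference was -0.35, against -0.76 for all 9 genes, which include Hk2 from below that level. At that level 75.1% of genes were below 0, 17.6% had all null arrays below all controls, and 26.4% had an unadjusted p under 0.05 as lower. When the arrays were normalized again the median of the 9 genes became -0.57 (quantile) and -0.46 (cyclic loess) against controls, and -0.49 and -0.37 against heterozygous, while the median of all probe sets was 0.012 and 0.0031 against controls and 0.023 and 0.013 against heterozygous. The part of signal level in the difference of the 9 genes was not tested further.

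Gapdh, the enzyme between aldolase and Pgk1, was measured by array control probe sets that were not tested. Its 3′ end read 2678, 3515 and 3616 on null, 3850, 3667 and 3481 on heterozygous and 3990 and 3603 on wild-type arrays. Null array 1 was the lowest and the other null arrays lay within the controls. The middle of Gapdh read 2004, 1798 and 1540 on null, 1918, 1850 and 1374 on heterozygous and 2671 and 2283 on wild-type arrays. There null array 1 was the highest null array and lay above all heterozygous arrays. The 5′ end of Gapdh read 359, 403 and 471 on null, 666, 766 and 387 on heterozygous and 910 and 835 on wild-type arrays. The ratio of 3′ to 5′ signal, a sign of RNA integrity, was 7.45 to 8.73 on null, 4.78 to 8.996 on heterozygous and 4.32 to 4.39 on wild-type arrays. Its part in the glycolysis differences was not tested.

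Of 16 other glycolytic enzymes and isoforms 12 were measured, and 2 fell in null against controls while none rose (0.934% of all genes were called there, 0.379% as lower); no gene of the list was called in another comparison. The list's median was -0.28, beside 0.03 over all genes. Pfkm, the muscle-type phosphofructokinase subunit, read 15.3, 35.04 and 18.2 on null, 167, 125 and 86.2 on heterozygous and 257 and 118 on wild-type arrays. Every null array lay below every control, and the difference was -2.72 ± 0.40 (limma adjusted p = 0.0324); against wild type it was -3.02 ± 0.50 (limma adjusted p = 0.100). Tpi1, triosephosphate isomerase, which lets both products of aldolase continue down the pathway, read 1218, 1389 and 1342 on null, 2497, 2046 and 2481 on heterozygous and 2322 and 2894 on wild-type arrays. The groups did not overlap, and the difference was -0.89 ± 0.13 (limma adjusted p = 0.0382). Its other probe sets gave -0.997 ± 0.298 and -0.83 ± 0.17 (limma adjusted p = 0.267 and 0.107). With 1 array left out, the Pfkm call held without null array 2, heterozygous array 3 or wild-type array 1 and was lost without any of the other 5 arrays (limma adjusted p over all 8 omissions 0.0196 to 0.103). The Tpi1 call held without null array 2, heterozygous array 2 or wild-type array 2 and was lost without any of the other 5 (0.0440 to 0.121). The platelet-type subunit Pfkp read 260, 211 and 135 on null, 233, 141 and 176 on heterozygous and 259 and 119 on wild-type arrays (0.13 ± 0.32, limma adjusted p = 0.887). Of the phosphofructokinase subunits, Pfkl and Pfkm each had a called probe set and Pfkp had none; whether they differ was not tested.

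The 9 genes listed as other glucose and lactate transporters, with Bsg, which carries lactate transporters to the membrane, had a median of -0.02 against controls, and 0 of 9 were called by limma (by an unadjusted p of 0.05, 1 was lower and 0 were higher, where 7.98% of all genes were lower and 5.51% higher). Slc16a3, the lactate exporter MCT4, read 65.7, 193 and 56.1 on null, 309, 169 and 445 on heterozygous and 384 and 410 on wild-type arrays. Null array 2 lay above heterozygous array 2, and the difference was -1.87 ± 0.47 (limma adjusted p = 0.187). Slc16a1, the lactate transporter MCT1, differed by -0.73 ± 0.37 (limma adjusted p = 0.500). The glucose transporter Slc2a8 was dim on 7 arrays (8.11 to 14.6) and 55.3 on wild-type array 1. Slc2a2, Slc2a4 and Slc16a7 lay above background on 0 arrays and Slc2a6 on 1. A fall in these could hardly be seen, and they enter the list's median. By its brightest probe set Slc2a3, the neuronal-type glucose transporter GLUT3, overlapped between groups, at 2385, 1844 and 1678 on null, 1651, 1982 and 2070 on heterozygous and 1367 and 1690 on wild-type arrays (0.17 ± 0.18, limma adjusted p = 0.737). A dimmer Slc2a3 probe set read 89.9, 149 and 160 on null, 60.7, 87.4 and 59.8 on heterozygous and 22.9 and 73.5 on wild-type arrays. There every null array lay above every control (1.21 ± 0.44, limma adjusted p = 0.359). The other 2 Slc2a3 probe sets differed by -0.49 ± 0.89 and 0.27 ± 0.24 (limma adjusted p = 0.849 and 0.692).

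The genes that regulate flux or take up its products did not pass the test. Of 5 regulators of fructose bisphosphate levels 4 were measured, with a median of -0.09 and no call or unadjusted p under 0.05 in null against controls. Tigar, Pfkfb3 and Pfkfb4 differed from wild type by 0.95 ± 0.45, -0.13 ± 0.41 and 0.17 ± 0.28 (limma adjusted p = 0.707, 0.958 and 0.918). Pfkfb4 read 4.96 to 10.1 and lay above background on only 1 array, so its difference is uncertain. Of 12 genes of pyruvate entry into mitochondria 11 were measured. Their median was -0.76 with 8 of 11 below 0 (45.9% of all genes were), and limma called 0, with 3 lower and 0 higher by an unadjusted p of 0.05, where 7.98% of all genes were lower and 5.51% higher. By its brightest probe set Pdk1, the kinase that shuts pyruvate dehydrogenase, read 130, 16.8 and 66.4 on null, 174, 201 and 189 on heterozygous and 147 and 165 on wild-type arrays (-1.73 ± 0.57, limma adjusted p = 0.318). A second Pdk1 probe set read 6.56, 148 and 101 on null, 142, 151 and 129 on heterozygous and 58.6 and 146 on wild-type arrays, so that the low null array was array 1 and not array 2 (-1.36 ± 0.96, limma adjusted p = 0.609). The remaining 2 Pdk1 probe sets were dimmer, and their differences had opposite signs (0.42 ± 0.45 and -0.92 ± 0.38, limma adjusted p = 0.740 and 0.419). The dehydrogenase subunits Dld and Pdhb differed by -1.49 ± 0.49 and -0.72 ± 0.34 (limma adjusted p = 0.318 and 0.467). Of 7 pentose phosphate genes 6 were measured, with a median of -0.53, 5 of 6 below 0 and 0 called by limma (4 lower and 0 higher by an unadjusted p of 0.05, beside the same 7.98% and 5.51% of all genes). Rpia, Taldo1 and Tkt, enzymes of the non-oxidative branch, differed by -1.24 ± 0.33, -0.83 ± 0.20 and -0.63 ± 0.25 (limma adjusted p = 0.213, 0.174 and 0.412). The 7 gluconeogenesis genes, all measured, had a median of 0.03 and 0 calls by limma, with 0 lower and 1 higher by an unadjusted p of 0.05 (7.98% and 5.51% of all genes). Of these, Fbp1 and G6pc lay above background on 0 arrays, Fbp2 on 1, Pcx on 2 and Pck1, the gene counted as higher, on 3. A fall in these could hardly be seen, and they enter the list's median.

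**Figure D4:**
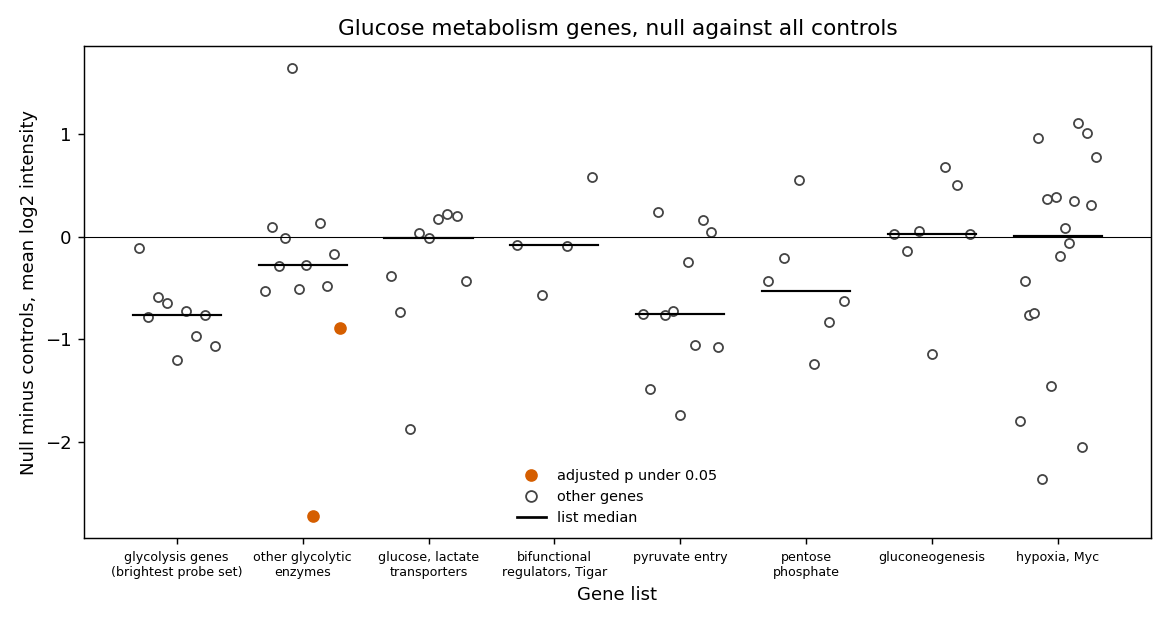
Null minus control log2 differences (brightest probe sets) of the glycolysis genes and of the other lists, 1 point per gene, with the list medians as bars and called genes marked. The glycolysis genes sit between -1.20 and -0.11, the pyruvate entry and pentose phosphate lists have medians of -0.76 and -0.53, and the transporter, gluconeogenesis and hypoxia lists have medians near 0. Several genes of the transporter and gluconeogenesis lists lay at background on most or all arrays, where a fall could hardly be seen.

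Of 19 hypoxia and Myc regulators and their targets outside glycolysis 18 were measured, 9 were below 0 and the median was 0.01. Limma called none (4 lower and 0 higher by an unadjusted p of 0.05, where 7.98% of all genes were lower and 5.51% higher). Egln1, the prolyl hydroxylase that marks hypoxia-inducible factor for destruction, read 15.3, 7.14 and 10.2 on null, 77.5, 43.1 and 29.7 on heterozygous and 78.6 and 53.9 on wild-type arrays. All null arrays were lower than all controls, and the difference of -2.36 ± 0.38 missed the threshold (limma adjusted p = 0.0507). The null values lay near background, that of null array 2 below its cutoff of 7.40, so the size of the difference is uncertain. A second Egln1 probe set read 13.8, 19.1 and 5.27 on null and 39.1 to 83.5 on control arrays (-2.06 ± 0.44, limma adjusted p = 0.124). The related gene Egln3 differed by -1.45 ± 0.54 (limma adjusted p = 0.374). Hif1a, the oxygen-regulated subunit itself, read 76.8, 72.6 and 180 on null, 171, 81.4 and 72.9 on heterozygous and 114 and 171 on wild-type arrays, a difference of -0.19 ± 0.42. Myc read 386, 455 and 469 on null, 464, 340 and 389 on heterozygous and 324 and 239 on wild-type arrays, a difference of 0.34 ± 0.21.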

How the data were processed

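Messenger RNA of 8 mice was hybridised after labelling with a Nugen kit, per the labels. As deposited, each probe set has a linear intensity, summarised with RMA per the submitters' processing notes; the sources used here do not state its version or a genome build. No per-sample column was left unused (0).

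Log2 of the deposited values was taken. Of 45101 probe sets 64 controls were left out, leaving 45037; the platform annotation gave 34945 of these 1 gene, 932 several and 9160 none, and 34741 had their symbol checked by gene number in RefSeq. An array's background was its brightest value among 27 control probe sets for bacterial transcripts. A 3-group model (limma 3.58.1, R 4.3.3, 5 residual degrees of freedom) compared null with wild type, null with heterozygous and heterozygous with wild type; a model of null against controls had 6. Tests were two-sided, with an adjusted p of 0.05 as threshold. The code was tested on simulated data, in null against controls. Of 50 probe sets lowered by 1 log2 unit it called 16, and of 50 raised by 1 it called 18. For shifts of 2 it called 33 of 50 in either direction. Many differences of 1 log2 unit would thus be missed.

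The members and lists were chosen with earlier results of these data known. Named genes are all members and, per list, each called gene and the 3 with the largest null minus wild-type difference; others, such as Pfkp, Slc2a3, Hif1a and Myc, were named after their values were seen. Replicates were numbered in order of deposit. Alternatives were a pseudocount of 32, quantile and cyclic loess normalization, filters at the median level and at background on 2 arrays, the mean of a gene's probe sets, array weights, a trended prior, fits on the compared groups only, and each array left out.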

Additional observations from a re-analysis of the deposited data

How the results depend on the processing

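The counts of called glycolysis probe sets, the median differences, the difference of each member, and those of Pfkm, Tpi1, Afp, Apoa2 and the second Pfkl probe set were computed again under the alternatives. The medians of the other lists, the separation of the groups, the counts by unadjusted p, Egln1 and Pck2 were not. The number of the 20 glycolysis probe sets called stayed at 0 in null minus wild type and heterozygous minus wild type; leaving out 1 array gave 0 to 1 in null minus heterozygous and 0 to 4 in null minus controls. In null minus controls the main count of 1 became 0 with the pseudocount, with cyclic loess and with array weights, and 2 with a trended prior; without null array 2 it was 4, without any other single array 0. The median difference of the 9 genes moved to -0.58 in null minus wild type (cyclic loess), to -0.49 (quantile) and -0.37 (cyclic loess) in null minus heterozygous, and to -0.57 and -0.46 in null minus controls. With 1 array left out the medians ran from -0.86 to -0.63, -0.79 to -0.54 and -0.78 to -0.60 in these comparisons and from -0.09 to 0.02 in heterozygous minus wild type. Signs turned only for differences that had not passed. Aldoa gave 0.017 (quantile), 0.13 (cyclic loess) and 0.0023 (mean of probe sets) in null minus wild type, 0.010 and 0.12 in null minus heterozygous and 0.013 and 0.13 in null minus controls, with leave-one-out ranges of -0.28 to 0.10, -0.34 to 0.038 and -0.32 to 0.061. In heterozygous minus wild type, Ldha gave -0.0097 (quantile) and -0.033 (cyclic loess), and with the mean of probe sets Hk1 gave 0.28 and Slc2a1 0.40. The leave-one-out ranges there were -0.031 to 0.047 for Ldha, -0.27 to 0.23 for Hk1, -0.32 to 0.18 for Slc2a1, -0.43 to 0.037 for Pfkl, -0.024 to 0.14 for Aldoa, -0.30 to 0.016 for Pkm and -0.14 to 0.065 for Hk2. Where 1 wild-type array was left out the other was assumed to vary like the other groups. The causes were not tested. Of the calls outside the 9 genes, Tpi1 was lost with quantile normalization (limma adjusted p = 0.102), cyclic loess (0.157), both filters (0.0991 and 0.0690), the mean of probe sets (0.0525) and array weights (0.113), and Pfkm with the pseudocount (0.0979), array weights (0.0820) and a trended prior (0.0515). In null minus controls Afp was called in 7 of 10 settings, the main one included, and in 2 of 8 fits with 1 array left out. In null minus heterozygous Afp was called in 8 of 11 settings and Apoa2 in 10 of 11. No paired analysis was possible because replicate numbers only follow the order of deposit.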

Other observations

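Some listed genes were bright on 1 or 2 arrays. Eno3, the muscle-type enolase, read 367 on null array 2 and 4.83 and 6.36 on the other null arrays, against 5.08 to 9.84 on the controls. Hk3, a hexokinase of myeloid cells, read 13.5 to 27.1 on the null arrays, against 122 on wild-type array 2 and 16.0 to 22.3 on the other controls. Adm, a hypoxia-induced peptide hormone gene, read 8.70 to 13.7 on the null arrays, against 92.8 on heterozygous array 3, 365 on wild-type array 2 and 11.5 to 12.9 on the other controls. Among the gluconeogenesis genes, Pck2, the mitochondrial phosphoenolpyruvate carboxykinase, was higher on all null and heterozygous arrays than on the wild-type arrays. It read 91.0, 67.8 and 89.7 on null and 76.6, 77.3 and 75.7 on heterozygous arrays, against 38.4 and 38.8 on wild-type arrays. The null minus wild-type difference was 1.09 ± 0.17 (limma adjusted p = 0.0784) and the heterozygous minus wild-type difference 0.99 ± 0.17 (limma adjusted p = 0.522), so neither passed. G6pc3, a glucose-6-phosphatase, differed from controls by -1.14 ± 0.77 and Pck1, the cytosolic carboxykinase, by 0.68 ± 0.22 (limma adjusted p = 0.597 and 0.316). Pck1 read 4.37 to 12.6 and lay above background on only 3 arrays, so the size of its difference is uncertain.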
